A study of Mus musculus with 31 samples.

Results

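The 6 genes described here are the Notch receptors Notch1, Notch2 and Notch3 and the Notch target genes Hes1, Nrarp and Dtx1. They were found by symbol among the 48881 Ensembl gene rows of each count table, and all 6 had a row in both. The study sequenced RNA from 31 C57BL/6 mouse libraries. In 24 of them, DN1 or DN3 thymocytes, which are CD4- CD8- precursors at an early and a later stage, had grown on OP9-DL1 cells with stem cell factor, IL-7 and IL-2. OP9-DL1 is a bone marrow stromal line that displays the Notch ligand Dll1, so every culture received a Notch signal. All cultured cells carried R26-CreERT2 and R26-stop-tdTomato, and the floxed groups also carried E2Af/f and HEBf/f alleles, while the groups called control here did not. The gene symbols are Tcf3 for E2A and Tcf12 for HEB, and both encode E proteins, which bind E-box DNA. The Cre is active only after 4-hydroxytamoxifen (4-OHT), which was added on day 4 by the design text, although the labels of the DN1 day 7 libraries place it on day 7. Day 4 libraries came before the drug and were not sorted by tdTomato. Cells of days 5 and 7 were sorted as tdTomato positive. Each of the 12 culture groups had 2 libraries, lettered a and b when floxed and c and d when control. The other libraries came from ILC2, group 2 innate lymphoid cells, isolated directly from mice. The thymic ILC2 (2 libraries) and 1 group of lung ILC2 (2 libraries), both called dKO, carried plck-Cre with E2Af/f HEBf/f. The other lung group (3 libraries) carried plck-Id1 by title, although the genotype labels of 2 of its libraries read plck-Id2 and plck-Id3. The plck transgenes are driven by the Lck proximal promoter, which is active in thymocytes. No label says whether replicates were separate animals or cultures, so p-values measure the spread between libraries, which may be technical.

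Notch receptors are cut after they meet a Delta or Jagged ligand on a neighbouring cell. The freed intracellular part enters the nucleus, binds the DNA-binding protein Rbpj and turns on target genes. In the thymus, Notch1 is the receptor that commits progenitors to the T lineage, and Notch3 is known from immature thymocytes. Hes1 is a transcriptional repressor, Nrarp binds the nuclear Notch complex and dampens it, and Dtx1 (Deltex1) is a ubiquitin ligase that acts on Notch.

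Library totals ran from 5908459 to 10692186 counts for cultures. They were 4818443 to 5669876 for thymic ILC2, 3695522 to 5627406 for lung dKO ILC2 and 9671437 to 13065445 for lung Id1 ILC2. Levels are given as CPM, counts divided by library size and scaled by TMM, edgeR's correction for library composition. In control cultures Tcf3 averaged 64.8 to 112 CPM, against 27.6 in DN1 and 23.97 in DN3 floxed cultures on day 7. Tcf12 averaged 108 CPM in DN1 and 160.5 CPM in DN3 floxed cultures on day 7, against 273 and 507 in the controls. In dKO ILC2 Tcf3 averaged 8.98 CPM in the thymus and 3.06 CPM in the lung. Tcf12 averaged 276 CPM in thymic dKO ILC2 (166 CPM with plain library totals), so it was not below the DN1 controls there on the TMM scale. In lung ILC2 it averaged 120 CPM in dKO and 197 CPM in Id1 libraries. These sums over the whole gene include any exons outside the deleted part. Summed markers of OP9 stroma (11 genes) reached 1595 to 8513 CPM on day 4 and 62.4 to 202 CPM on days 5 and 7. Skeletal muscle markers (8 genes) summed to 8055 CPM in DN1 floxed day 7 library b and 61.2 CPM in library a. Floxed cultures had 582 to 1937 CPM of Xist and control cultures 4.49 to 68.4 CPM, so sex and genotype cannot be told apart in the cultures. All 6 genes are autosomal, and the part of sex in their differences was not tested. ILC2 markers (9 genes) summed to 1090 to 4718 CPM in the ILC2 libraries, against 115 to 234 CPM in day 4 cultures. Floxed cultures of day 7 reached 1521 to 1610 CPM in DN1 and 1140 to 1370 CPM in DN3. Both lay within the 1090 to 1851 CPM of thymic ILC2. Cultures and thymic ILC2 were scaled by TMM in separate fits, however. With plain library totals thymic ILC2 levels were lower: Notch1 was 51.1 and 51.1 CPM there, against 93.3 and 78.0 CPM with TMM. The overlap of the sums is thus shown on the TMM scale only. Some single markers set the cultures and thymic ILC2 apart. Il1rl1 was at most 1.12 CPM in cultures of days 5 and 7 and 263 to 588 CPM in thymic ILC2. Il17rb was at most 119 CPM against 239 to 375 CPM. The highest levels of Gata3, Icos and Rora ran the other way. They were 692, 461 and 604 CPM in those cultures and 222, 238 and 422 CPM in thymic ILC2.

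The promoters of Notch1, Notch3 and Nrarp are shown because their windows hold no annotated untranslated region of the gene. Notch1 and Notch3 fell in floxed cultures of both precursors, while Nrarp moved in opposite directions in them. Each is the 250 bases before the RefSeq start (build GRCm38.p6), 5′ to 3′ along the gene. They lie at chr2:26503823-26504072 (minus strand), chr17:32166891-32167140 (minus strand) and chr2:25180508-25180757 (plus strand). The Notch1 window lies in an intron of the longest GENCODE M21 Notch1 transcript, which starts further upstream, and the other windows hold no GENCODE exon. Capitals mark matches to the E-box motif CANNTG or to TGGGAA, the core bound by Rbpj, searched on both strands.
Notch1: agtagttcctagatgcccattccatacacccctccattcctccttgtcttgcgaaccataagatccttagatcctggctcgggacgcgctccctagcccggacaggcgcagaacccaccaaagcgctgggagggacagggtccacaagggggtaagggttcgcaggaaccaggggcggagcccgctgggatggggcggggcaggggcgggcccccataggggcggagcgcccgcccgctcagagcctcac
Notch3: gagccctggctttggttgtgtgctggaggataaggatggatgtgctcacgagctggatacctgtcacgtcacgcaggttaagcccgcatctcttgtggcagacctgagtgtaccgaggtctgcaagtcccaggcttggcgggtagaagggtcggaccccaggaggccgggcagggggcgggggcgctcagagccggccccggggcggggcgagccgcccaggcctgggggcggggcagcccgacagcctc
Nrarp: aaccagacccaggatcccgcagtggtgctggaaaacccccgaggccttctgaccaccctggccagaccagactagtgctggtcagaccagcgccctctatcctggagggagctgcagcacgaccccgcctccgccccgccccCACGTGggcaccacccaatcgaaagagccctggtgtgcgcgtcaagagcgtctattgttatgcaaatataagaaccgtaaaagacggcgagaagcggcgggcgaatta
The only match was CACGTG in Nrarp, which begins 108 bases before the start. The windows of Notch2 and Dtx1, not printed, held no match either. Among 32841 RefSeq promoter windows of the same length, 66.2% held CANNTG and 21.6% held TGGGAA. The E-box forms CAGCTG and CACCTG, held by 13% and 17.2% of those windows, were in none of the windows of these genes. No match says only that these letters are not in this window.

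In control cultures the precursors differed in which of these genes were high. On day 4, Notch1 and Dtx1 were higher in DN3 and Notch2, Hes1 and Nrarp in DN1. By day 7 Hes1 and Nrarp still were, and Notch3 was higher in DN3. Notch1 on day 4 was 101 and 98.1 CPM in DN1 controls and 320 and 317 CPM in DN3 controls. The DN1 minus DN3 log2 change was -1.68 ± 0.19 (SE, n = 2 against 2, adjusted p = 1.28e-06). Hes1 ran the other way, at 159 and 176 CPM in DN1 and 46.7 and 55.4 CPM in DN3 (1.71 ± 0.23, adjusted p = 1.09e-05). Dtx1 was 30.2 and 24.9 CPM in DN1 and 146 and 146 CPM in DN3 (-2.40 ± 0.31, adjusted p = 5.18e-06). Notch2 (0.88 ± 0.25, adjusted p = 0.00933) and Nrarp (0.83 ± 0.21, adjusted p = 0.00350) were also higher in DN1. Thus 5 of the 6 genes passed the threshold on day 4, where 39.7% of all 15172 tested genes did. The Nrarp call was lost without DN1 control d (adjusted p = 0.0985). The Notch2 call was lost without DN1 control c (0.0587) or DN3 control d (0.0709). Summed stromal markers were 8146 to 8513 CPM in these DN1 libraries and 1595 to 1768 CPM in the DN3 ones, and their part in the day 4 differences was not tested. In these bulk samples, fewer cells of a type and less RNA per cell cannot be told apart.

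By day 7, in sorted control cells, 3 of 6 genes differed between the precursors, against 22.6% of all genes tested. Hes1 was 148 and 151 CPM in DN1 and 62.1 and 64.1 CPM in DN3 (1.25 ± 0.23, adjusted p = 0.000481). Nrarp was 49.1 and 43.4 CPM in DN1 and 12.005 and 13.97 CPM in DN3 (1.83 ± 0.20, adjusted p = 2.17e-06). Notch3 was lower in DN1, at 32.5 and 31.2 CPM against 63.7 and 70.4 CPM (-1.07 ± 0.28, adjusted p = 0.00936). That Notch3 call was lost without DN1 control c (0.0606), DN1 control d (0.0734) or DN3 control d (0.0728). Notch1 did not pass the threshold on day 7 (-0.41 ± 0.18, adjusted p = 0.121), with 270.0 and 244 CPM in DN1 and 340.0 and 341 CPM in DN3. Fitted on the compared groups alone, all 6 genes passed, but the 22.6% above belongs to the fit over all cultures. The share of all genes in the smaller fit is not given here.

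**Figure D1:**
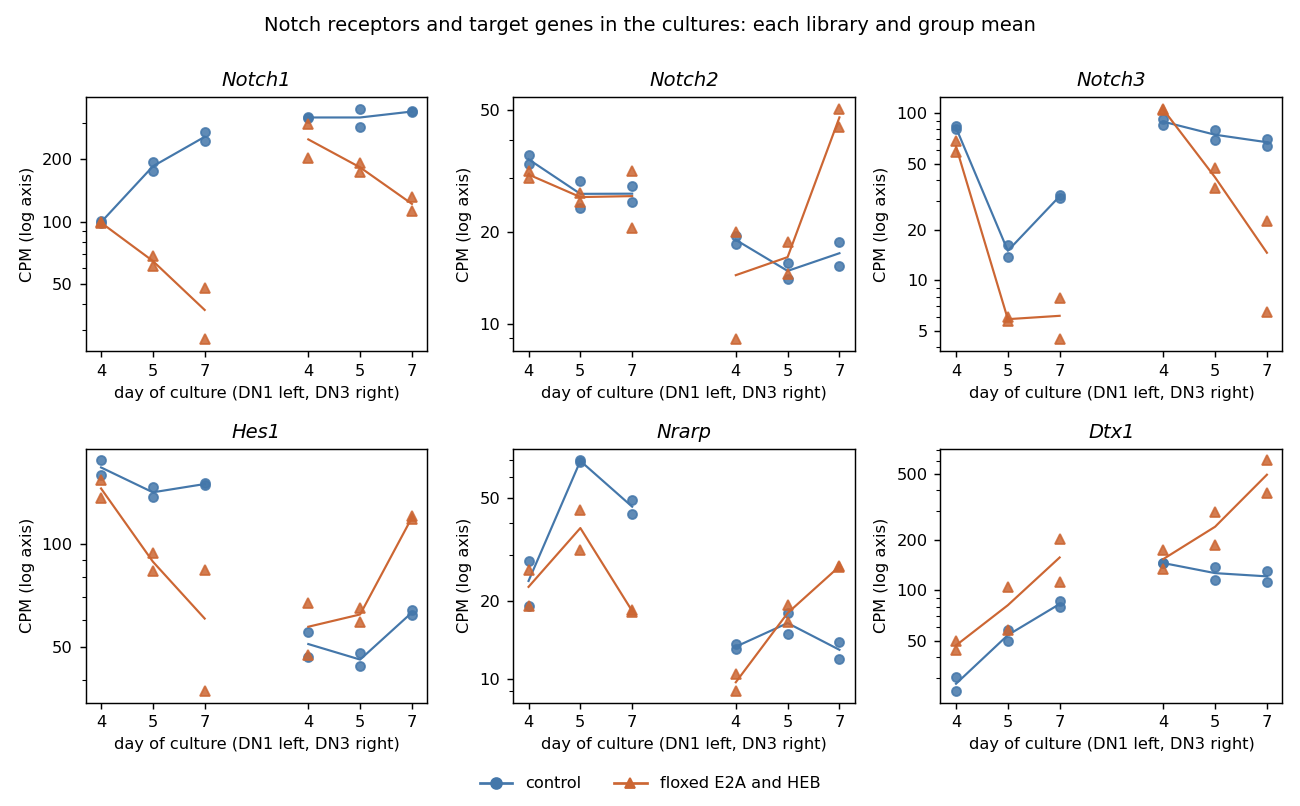
Level of each gene in CPM (log axis) against day of culture, DN1 on the left and DN3 on the right of each panel. Points are libraries and lines join group means, with floxed groups as triangles and controls as circles. On day 7 Notch1 and Notch3 lie below the controls in both precursors, while Hes1 and Nrarp lie below them in DN1 and above them in DN3.

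Before the drug, no difference between floxed and control cultures passed the threshold in the edgeR fit with the filter on low counts. On day 4, 0 of 6 genes passed in DN1, where 0.105% of all genes did, and 0 of 6 in DN3, where 0.442% did. At an unadjusted p under 0.05 there was 1 in DN1 and 0 in DN3, and DESeq2 called 0 in both. The nearest to a call was Dtx1 in DN1, at 49.9 and 43.8 CPM in floxed and 30.2 and 24.9 CPM in control libraries (0.76 ± 0.31, adjusted p = 0.873). The floxed range lay above the control range in that case. With no filter on low counts edgeR called this Dtx1 difference (0.79, adjusted p = 1.7e-05). That setting added 19 calls of the 6 genes over all comparisons and lost 1. Its share of all genes on day 4 is not given here.

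Notch1 fell after the drug in both precursors. In DN1 on day 5 it was 61.1 and 68.1 CPM in floxed and 194 and 176 CPM in control cultures, a log2 change of -1.52 ± 0.19 (adjusted p = 5.87e-05). By day 7 the floxed libraries held 48.0 and 27.0 CPM and the controls 270.0 and 244 CPM (-2.77 ± 0.20, adjusted p = 2.93e-08). The groups were separate on both days, and the floxed level on day 7 was 6.84-fold lower. In DN3 on day 5 Notch1 was 193 and 173 CPM in floxed and 286 and 351 CPM in control cultures (-0.80 ± 0.18, adjusted p = 0.00795). The DN3 day 5 call was lost without control d (-0.65, adjusted p = 0.106) or floxed b (-0.72, adjusted p = 0.120). On day 7 the DN3 values were 132 and 112 CPM against 340.0 and 341 CPM (-1.48 ± 0.19, adjusted p = 9.65e-06), a 2.79-fold lower level.

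Notch3 was also lower in floxed cultures, with more spread. In DN1 on day 7 the floxed libraries held 7.84 and 4.43 CPM and the controls 32.5 and 31.2 CPM (-2.36 ± 0.34, adjusted p = 6.52e-05). On day 5 the values were 5.69 and 6.03 CPM against 13.8 and 16.2 CPM (-1.36 ± 0.37, adjusted p = 0.0386). The day 5 groups did not overlap, but the call was lost when any 1 of the 4 libraries was left out (adjusted p 0.121 to 0.245). In DN3 Notch3 did not pass on day 5 (-0.85 ± 0.28, adjusted p = 0.0650), with 47.2 and 35.5 CPM in floxed and 79.5 and 69.2 CPM in control cultures. That is the edgeR fit over all cultures. The same change passed with DESeq2 (-0.85, adjusted p = 0.0358), with edgeR on the compared groups alone (-0.84, adjusted p = 0.0103) and with no filter on low counts (-0.83, adjusted p = 4.6e-05). On day 7 it did, at 22.8 and 6.47 CPM against 63.7 and 70.4 CPM (-2.23 ± 0.31, adjusted p = 2.95e-05). The floxed pair was unequal there: the change was -3.37 without floxed a and -1.56 without floxed b, and passed in each case.

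Notch2 behaved unlike the other receptors. In DN3 on day 7 it was 44.2 and 50.6 CPM in floxed and 18.6 and 15.5 CPM in control cultures, a rise of 1.48 ± 0.25 on the log2 scale (adjusted p = 0.000215). The floxed libraries stood above all other cultures, whose highest Notch2 level was 35.8 CPM. In DN1 on day 7 it was 31.8 and 20.6 CPM in floxed and 28.3 and 25.1 CPM in control cultures (-0.02 ± 0.25, adjusted p = 0.965), and the ranges overlapped. On day 5 the log2 changes were -0.04 in DN1 and 0.15 in DN3, and neither passed.

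**Figure D2:**
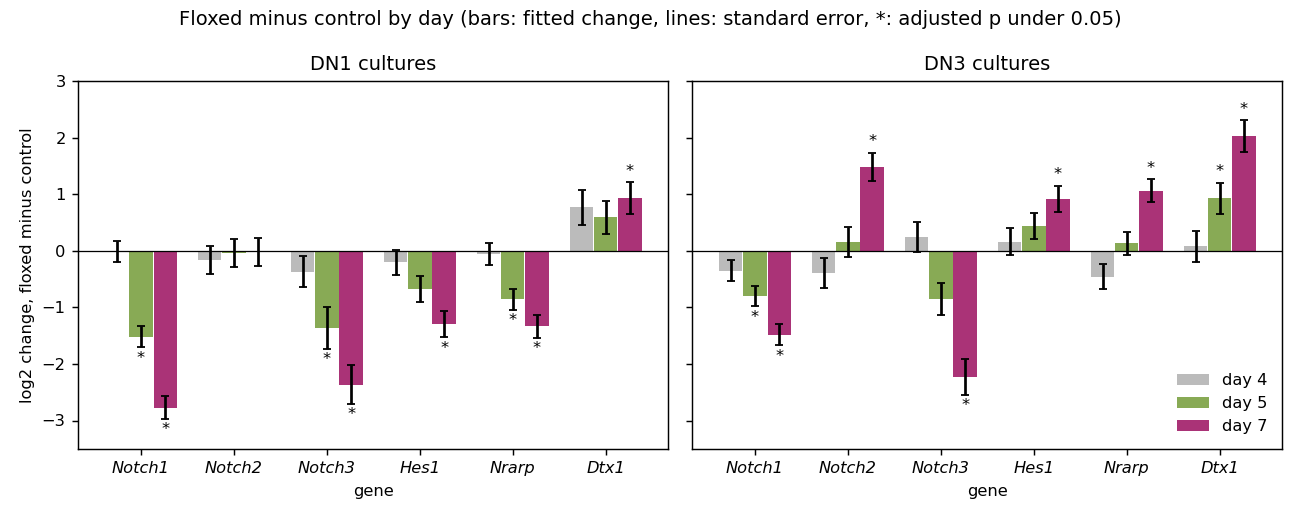
Fitted log2 change, floxed minus control, for each gene on days 4, 5 and 7 in DN1 (left) and DN3 (right). Bars are changes, lines are standard errors and asterisks mark adjusted p under 0.05. On day 7 the changes run from -2.77 for Notch1 to 0.93 for Dtx1 in DN1 and from -2.23 for Notch3 to 2.02 for Dtx1 in DN3.

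Hes1 and Nrarp moved in opposite directions in the precursors, and Dtx1 was higher in floxed cells of both on day 7. In DN1, both floxed libraries had already lain above both controls for Dtx1 before the drug, a difference that passed the threshold only with no filter on low counts. Hes1 fell in DN1 on day 7, to 84.0 and 37.2 CPM from 148 and 151 CPM in controls (-1.30 ± 0.23, adjusted p = 0.000418). In DN3 on day 7 it rose to 121 and 119 CPM from 62.1 and 64.1 CPM (0.92 ± 0.23, adjusted p = 0.00549). The groups were separate in both cases. On day 5 Hes1 was 94.2 and 83.5 CPM in DN1 floxed cells against 147 and 137 CPM (-0.67 ± 0.23, adjusted p = 0.100), and in DN3 the change was 0.44 ± 0.23 (adjusted p = 0.278). Neither day 5 change passed.

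Nrarp fell in DN1 on both days. On day 5 it was 44.97 and 31.6 CPM in floxed and 69.9 and 69.0 CPM in control cultures (-0.86 ± 0.19, adjusted p = 0.00998). That call was lost without control c (0.0845), control d (0.0722) or floxed b (-0.63, adjusted p = 0.221). On day 7 it was 18.5 and 18.1 CPM against 49.1 and 43.4 CPM (-1.34 ± 0.20, adjusted p = 7.61e-05). In DN3 on day 7 Nrarp rose, at 27.3 and 27.1 CPM against 12.005 and 13.97 CPM (1.06 ± 0.21, adjusted p = 0.000771). The floxed replicates of day 7 were close to each other in both precursors. On day 5 in DN3 the groups, at 19.4 and 16.6 CPM and 14.9 and 17.98 CPM, overlapped (0.13 ± 0.21, adjusted p = 0.772).

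Dtx1 rose most in DN3. On day 7 it was 385 and 604 CPM in floxed and 113 and 129.98 CPM in control cultures, a log2 change of 2.02 ± 0.28 (adjusted p = 3.03e-05) or 4.07-fold. On day 5 in DN3 it was 186 and 296 CPM against 139 and 115 CPM (0.92 ± 0.28, adjusted p = 0.0409). That call was lost without control c (adjusted p = 0.109), control d (0.233) or floxed b (0.56, adjusted p = 0.447). In DN1 on day 7 it was 112 and 203 CPM in floxed and 79.8 and 86.1 CPM in control cultures (0.93 ± 0.28, adjusted p = 0.0241). The DN1 call was lost without control c (0.134), control d (0.0939) or floxed b (0.44, adjusted p = 0.414), the library with high muscle markers. In DN1 the change had been 0.76 ± 0.31 on day 4, before the drug, and was 0.59 ± 0.29 on day 5 (adjusted p = 0.304), and its shift from day 4 to day 7 was 0.16 ± 0.42 (adjusted p = 0.869).

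In all, on day 5, 3 of 6 genes passed in DN1 (5.02% of all tested genes) and 2 of 6 in DN3 (9.76%). On day 7, 5 of 6 passed in DN1 (22.5%) and 6 of 6 in DN3 (24.9%). In DN3 on day 7 all 6 calls held when any 1 of the 4 libraries was left out. In DN1 on day 7 those of Notch1, Notch3, Hes1 and Nrarp did. Without DN1 floxed b, their changes were -2.42, -2.02, -0.83 and -1.32. Without floxed a, that of Hes1 was -2.02. Fitted on the 2 compared groups alone, Hes1 (adjusted p = 0.0964) and Dtx1 (adjusted p = 0.125) no longer passed in DN1 on day 7.

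The difference between the precursors in the floxed minus control change was itself tested. On day 7, 4 of 6 genes passed (7.79% of all genes). The change in DN1 minus that in DN3 was -2.40 ± 0.29 for Nrarp (adjusted p = 5.31e-05) and -2.22 ± 0.32 for Hes1 (adjusted p = 0.000326). The Hes1 difference was -2.94 without DN1 floxed a. It was -1.29 ± 0.27 for Notch1 (adjusted p = 0.00541), which fell further in DN1, and -1.51 ± 0.35 for Notch2 (adjusted p = 0.0127). The Notch1 difference did not pass on the 4 compared groups alone (adjusted p = 0.0643). The Notch2 difference did not pass without DN1 control c (0.0552), DN3 control d (0.0823) or DN3 floxed b (0.0588). Notch3 (-0.13 ± 0.46, adjusted p = 0.916) and Dtx1 (-1.10 ± 0.39, adjusted p = 0.0944) did not pass, though Dtx1 did without DN1 floxed b (-1.58, adjusted p = 0.0158). On day 5, 0 of 6 passed with edgeR (1.36% of all genes), 3 had an unadjusted p under 0.05, and DESeq2 called 1.

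Against day 4, the floxed minus control change had shifted by day 7 for 4 of 6 genes in DN1 (7.78% of all genes) and 5 of 6 in DN3 (12.3%). The shift was -2.77 ± 0.27 for Notch1 and -1.99 ± 0.44 for Notch3 in DN1, with -1.28 ± 0.28 for Nrarp and -1.10 ± 0.32 for Hes1. The Hes1 shift was lost when any of 7 of the 8 libraries was left out (adjusted p up to 0.145), and the Nrarp shift without DN1 control c of day 4 (0.0587) or floxed a of day 4 (0.0685). On the compared groups alone neither the Nrarp (adjusted p = 0.0810) nor the Hes1 shift (0.224) passed. Without floxed a of day 7 the Hes1 shift was -1.82. In DN3 the shift was -1.13 ± 0.26 for Notch1, 1.88 ± 0.37 for Notch2, -2.47 ± 0.41 for Notch3, 1.52 ± 0.30 for Nrarp and 1.94 ± 0.39 for Dtx1. The DN3 calls held without any 1 library, but the Notch3 shift was -3.61 without floxed a and -1.80 without floxed b of day 7, and the Notch2 shift 2.56 without floxed a of day 4. Day 4 cells were unsorted and day 7 cells sorted, in both genotypes.

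Between days 5 and 7 the DN3 controls showed 0 of 6 genes past the threshold, where 20.3% of all genes passed, with 0 at an unadjusted p under 0.05 and 0 by DESeq2. In DN3 floxed cultures all 6 passed (24.5% of all genes). Notch2 rose by 1.52 ± 0.25, Dtx1 by 1.04 ± 0.28, Hes1 by 0.94 ± 0.23 and Nrarp by 0.60 ± 0.20 on the log2 scale. Notch3 fell by 1.53 ± 0.31 and Notch1 by 0.59 ± 0.19. Of these, the calls of Notch2 and Notch3 held without any 1 library, but the size of the Notch3 change was -2.67 without floxed a of day 7 and -0.86 without floxed b of day 7. That of Nrarp was lost without any 1 (adjusted p 0.0744 to 0.214). Those of Notch1 (0.162 and 0.217) and Dtx1 (0.150 and 0.186) were lost without floxed a of day 5 or floxed b of day 7, and that of Hes1 without floxed a of day 5 (0.0574).

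In DN1 controls 2 of 6 genes passed between days 5 and 7 (13.1% of all genes). Notch3 rose by 1.08 ± 0.31 and Nrarp fell by 0.59 ± 0.19, and both calls were lost without any 1 of the 4 libraries (adjusted p 0.0921 to 0.242). In DN1 floxed cultures 3 of 6 passed (21.5%): Nrarp fell by 1.06 ± 0.20 and Notch1 by 0.78 ± 0.20, and Dtx1 rose by 0.95 ± 0.28. None of the 3 passed when fitted on the compared groups alone (adjusted p = 0.0947 for Nrarp, 0.201 for Notch1 and 0.213 for Dtx1). In the fit over all cultures, the Nrarp call held without any 1 library. The Notch1 call was lost without floxed b of day 5 (0.0632) or of day 7 (0.156), and the Dtx1 call without floxed a of day 5 (0.262) or floxed b of day 7 (0.364). Notch3 had been far higher before sorting, at 83.9 and 79.9 CPM in DN1 controls of day 4 against 13.8 and 16.2 CPM on day 5. Summed stromal markers dropped over the same days, and their part was not tested.

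Floxed cultures of day 7 were also set against each other. In these, 5 of 6 genes were lower in DN1 than in DN3, as were 10.3% of all genes, and 22% of all genes passed in either direction. The log2 changes were -1.70 ± 0.20 for Notch1, -1.65 ± 0.28 for Dtx1, -1.21 ± 0.37 for Notch3, -0.98 ± 0.23 for Hes1 and -0.85 ± 0.25 for Notch2. Nrarp was at -0.57 ± 0.20 (adjusted p = 0.0510). The Notch3 call was lost without DN3 floxed a (-0.07, adjusted p = 0.924) or DN1 floxed b (-0.85, adjusted p = 0.209). The Notch3 change was -1.88 without DN3 floxed b and that of Hes1 -1.69 without DN1 floxed a. The Notch2 call was lost without DN1 floxed b (0.172) or DN3 floxed b (0.124). On the 2 groups alone only Notch1 passed.

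The order of culture levels differed from gene to gene. Notch1 was highest in DN3 controls, at mean levels of 319 to 340.4 CPM, and lowest in DN1 floxed day 7 cells, at 37.5 ± 14.8 CPM (SD, n = 2). Notch2 and Dtx1 were highest in DN3 floxed day 7 cells, at 47.4 ± 4.5 and 494 ± 155 CPM. Hes1 was highest in DN1 controls of day 4 (167 ± 12 CPM) and Nrarp in those of day 5 (69.4 ± 0.6 CPM). Neighbouring groups often overlapped: DN1 controls of day 7 and DN3 floxed cells of day 4 could not be ordered by Notch1, nor could the 3 lowest Hes1 groups.

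Receptors can be compared with each other only per length of RNA. The length of the RNA made was not known, so CPM was divided by the joined length of all annotated exons of each gene in kilobases. That length covers every annotated transcript and can exceed the RNA that was made. The lengths were 14232 bases for Notch1, 10782 for Notch2 and 8089 for Notch3. On this scale Notch1 made up 71.4% and 70.2% of the summed level of the 3 receptors in DN3 controls of day 7, and Notch2 made up 5.14% and 4.22%. In DN3 floxed cells of day 7 Notch1 still held 57.2% and 58.9%, while Notch2 held 25.3% and 35.1%. In DN1 the Notch1 share was 74.1% and 73.5% in controls of day 7 and 46.3% and 43.5% in floxed cells. The Notch2 share there was 10.2% and 9.97% in controls and 40.4% and 43.9% in floxed cells. These shares do not depend on library scaling, but they do depend on the lengths used. In ILC2 the order was another one. Notch2 held 49.6% and 68.1% of the sum in thymic ILC2. In thymic ILC2 replicate 1 Notch1 and Notch2 both had 290 counts, so their order in that library came from the lengths alone. In the lung it held 88.5% and 79.4% in dKO ILC2 and 94.4% to 95.3% in Id1 ILC2.

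Thymic ILC2 were set against the floxed cultures of day 7, which share the 2 floxed genes but not the Cre, the culture or the sort. Sex differed too: Xist was 0.322 and 0.317 CPM in thymic ILC2. Summed Y-linked genes were 543 and 553 CPM there and at most 2.63 CPM in the floxed cultures of day 7. Markers of DN3 cells and the pre-T cell receptor (6 genes) summed to 2038 to 2067 CPM in thymic ILC2 and to 1928 to 2031 CPM in DN3 floxed cultures. The 2 ranges were scaled by TMM in separate fits. Thymic ILC2 levels were lower with plain totals, so the likeness of these sums is shown on the TMM scale only. Most of the thymic ILC2 sum was Il2ra, the IL-2 receptor alpha chain, at 1461 to 1488 CPM. Rag1, a recombinase gene of immature lymphocytes, was at 89.1 to 91.1 CPM there. Lung Id1 ILC2, with 0 counts of Rag1 and Ptcra, still summed to 1060 to 1159 CPM, with Il2ra at 823 to 995 CPM. Like sums thus do not show like pre-T cell receptor content. The part of these markers, of sex and of the unlike Cre, culture and sort in the differences was not tested. Notch2 was higher in thymic ILC2 and Hes1, Nrarp and Dtx1 were lower. Notch2 was 93.3 and 165 CPM in thymic ILC2. The log2 change was 2.34 ± 0.28 against DN1 (adjusted p = 1.34e-07) and 1.48 ± 0.27 against DN3 (adjusted p = 4.37e-05). Hes1 was 5.79 and 6.98 CPM (-3.21 ± 0.32 against DN1, adjusted p = 6.78e-09, and -4.19 ± 0.31 against DN3, adjusted p = 6.16e-11). Without DN1 floxed a, the former was -2.60. Dtx1 was 40.9 and 34.3 CPM (-2.04 ± 0.31 and -3.68 ± 0.32). Nrarp was 3.54 and 4.12 CPM (-2.22 ± 0.29 and -2.79 ± 0.29), from 11 and 13 counts.

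Notch1 in thymic ILC2, at 93.3 and 78.0 CPM, lay between the floxed cultures. It was higher than in DN1 (1.23 ± 0.20, adjusted p = 1.38e-05) and lower than in DN3 (-0.47 ± 0.19, adjusted p = 0.0350). The second call was lost without DN3 floxed a (0.125), without thymic ILC2 replicate 3 (0.221), with RLE scaling (-0.14, adjusted p = 0.521), with DESeq2 (0.538) and on the compared groups alone (0.169). Notch3 was 18.03 and 13.6 CPM, higher than in DN1 (1.39 ± 0.39, adjusted p = 0.00285) and not different from DN3 past the threshold (0.18 ± 0.36, adjusted p = 0.664). The DN1 call for Notch3 was lost without DN1 floxed b (0.0559) and with plain library totals (0.64, adjusted p = 0.140). Without DN3 floxed a, the Notch3 change against DN3 was 1.25 and passed (adjusted p = 0.00113).

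Most genes differ between these kinds of library, so the counts say little about the 6 genes. Against DN1, 6 of 6 passed where 73.7% of all 16391 tested genes did, and against DN3 5 of 6 where 71.8% did. The scaling also matters. The median log2 change of all genes was -0.26 and -0.20 with TMM, 0.00 and 0.03 with RLE, and -0.99 and -0.92 with plain totals. Relative to those medians Hes1, Nrarp and Dtx1 stayed lower and Notch2 higher under each scaling. Counts on genes of the strand opposite to members differed as well. Gm13568, antisense to Notch1, had 70 and 73 counts in thymic ILC2 and 0 in all 24 cultures. Gm38287, antisense to Nrarp, had 12 and 13 counts against 0 to 2. Rows typed antisense held 0.492% to 0.548% of all counts in thymic ILC2 and 0.118% to 0.173% in cultures. Whether counting used strand is not stated, and the part of this in the Notch1 and Nrarp differences was not tested.

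In the lung, Notch2 was the highest of the receptors in every library on the per-length scale. It was 214 and 75.9 CPM in dKO and 379, 296 and 359 CPM in Id1 ILC2 (-1.25 ± 0.45, adjusted p = 0.0776). The ranges did not overlap, yet the dKO pair was wide apart. Notch3 was 10.7 and 6.02 CPM in dKO and 0.281, 1.28 and 0.681 CPM in Id1 ILC2 (3.49 ± 1.15, adjusted p = 0.0594), from 69 and 18 counts in dKO and 4 to 10 in Id1. Notch1 (17.8 and 15.4 against 29.0, 17.1 and 26.8 CPM) and Hes1 (20.2 and 14.7 against 26.1, 32.0 and 15.7 CPM) overlapped. Dtx1 overlapped too, at 2.02 and 4.01 against 2.81, 7.58 and 10.4 CPM.

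With edgeR, 0 of 5 tested genes passed in the lung, where 18.1% of all 19371 tested genes did. At an unadjusted p under 0.05 there were 2, and DESeq2 called 2, Notch2 (-1.12, adjusted p = 0.0379) and Notch3 (3.67, adjusted p = 0.00493). The median log2 change of all genes was 0.16 with edgeR and 1.81 with DESeq2. Relative to that median Notch2 was lower and Notch3 higher with both tools. Notch2 passed without dKO replicate 1 (-2.19, adjusted p = 0.0135) and Notch3 without Id1 replicate 2 (4.13, adjusted p = 0.0455). Nrarp had 1 count in Id1 replicate 1 and 0 in the other 4 libraries. With 3 counts as the limit that a count of 0 allows, its level there was under 0.227 to 1.004 CPM, for counting error only. Summed stromal markers were 55.1 to 152 CPM in lung dKO and 4.08 to 15.03 CPM in lung Id1 libraries, B lineage markers 21.1 to 40.9 and 0.422 to 3.85 CPM, and lung epithelial markers 28.1 to 44.4 and 1.54 to 5.14 CPM. Their part in the lung differences was not tested.

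**Figure D3:**
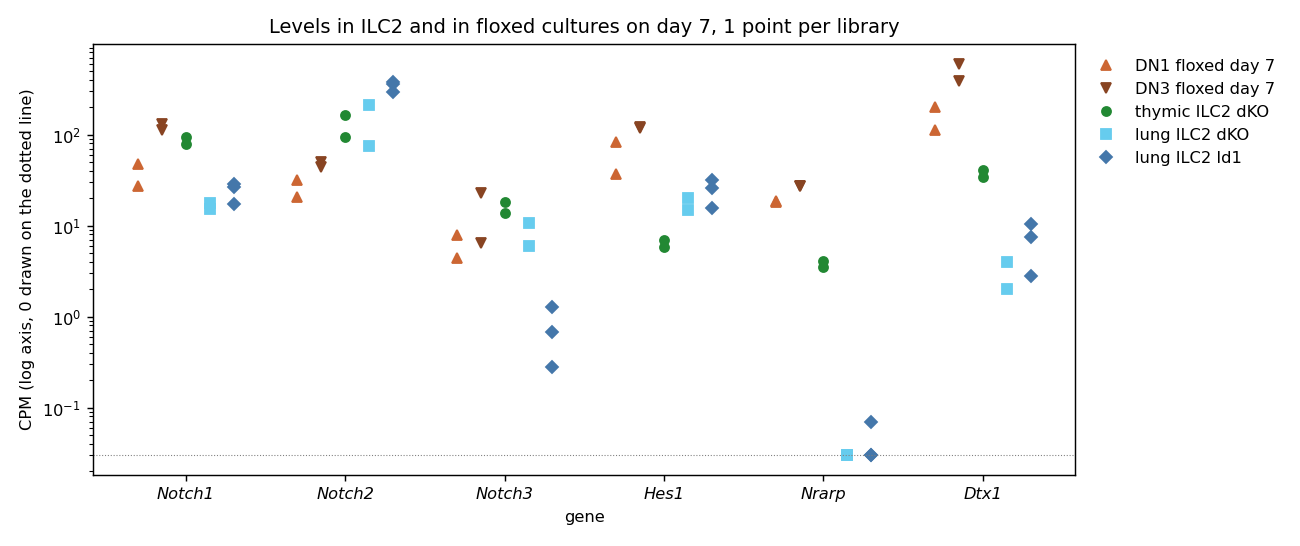
Level of each gene in CPM (log axis, with 0 drawn on the dotted line) in the ILC2 groups and the floxed cultures of day 7, 1 point per library. Thymic ILC2 have 5.79 and 6.98 CPM of Hes1, below both culture groups, and lung Id1 ILC2 have 296 to 379 CPM of Notch2.

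The rest of the pathway was followed in 48 other genes, of which 40 passed the filter on low counts. On day 7, 6 were higher and 4 lower in DN1 floxed cultures, where 12.2% of all genes were higher and 10.3% lower. In DN3, 11 were higher and 4 lower, beside 12.9% and 12% of all genes. Their median log2 change was -0.07 in DN1 and 0.39 in DN3, while that of all genes tested was 0.00 and -0.01. On day 5, 2 were higher and 3 lower in each precursor, beside 2.56% and 2.46% of all genes in DN1 and 4.56% and 5.2% in DN3.

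Among 5 ligands, Jag1 and Dll1 were tested. Jag1, a Jagged ligand, rose in DN1 on day 7 to 22.2 and 50.9 CPM, against 0.611 and 2.60 CPM in controls (4.48 ± 0.46, adjusted p = 1.38e-06). In DN3 it rose to 5.92 and 8.86 CPM against 1.53 and 2.09 CPM (2.06 ± 0.51, adjusted p = 0.00565). Jag1 had averaged 82.2 to 93.5 CPM in DN1 cultures of day 4, when stromal markers were high. On day 7 the stromal sums were 79.9 to 150 CPM in DN1 floxed cultures and 105 to 202 CPM in their controls.

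Of 13 tested genes that process receptors, 3 rose in DN1 and 6 in DN3 on day 7, and none fell in either. Of all genes, 12.2% were higher and 10.3% lower in DN1 then, and 12.9% and 12% in DN3. This list was given 15 genes and includes Notch4. Furin, the protease that makes the first cut, rose by 2.18 ± 0.20 in DN1 and 1.37 ± 0.20 in DN3. Lfng, a Fringe enzyme that adds sugar to Notch and shifts its response to ligands, rose by 1.28 ± 0.20 in DN3 (adjusted p = 0.000100) and stood at 0.41 ± 0.20 in DN1 (adjusted p = 0.156). Rfng, another Fringe, rose by 0.79 ± 0.22 in DN1. The gamma-secretase subunit Psenen rose by 0.49 ± 0.13 in DN1 and by 0.78 ± 0.13 in DN3.

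Of 8 genes for the nuclear complex, 1 rose and 2 fell in DN1, and 2 rose and 1 fell in DN3. In either direction 22.5% of all genes passed in DN1 on day 7 and 24.9% in DN3. Maml3, a Mastermind coactivator, fell by 0.87 ± 0.15 in DN1 and by 0.54 ± 0.16 in DN3. Rbpj rose by 0.47 ± 0.10 in DN3 (adjusted p = 0.00142) and was at 0.03 ± 0.10 in DN1 (adjusted p = 0.860). Ep300, a histone acetyltransferase, rose by 0.47 ± 0.13 in DN3. Of 7 negative regulators, 1 fell in DN1 and 0 passed in DN3. It was Dtx4, a relative of Dtx1, which fell by 3.22 ± 0.52 in DN1 and had means of 1.75 and 1.26 CPM in the DN3 floxed and control groups. None of the 3 tested Hes and Hey genes passed on day 7. Hes6 fell by 0.42 ± 0.11 in DN1 on day 5.

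Of 7 T lineage genes that need Notch, 1 rose and 1 fell in DN1 and 2 rose and 3 fell in DN3 on day 7. Beside them, 22.5% of all genes passed in DN1 and 24.9% in DN3. Ptcra, the pre-T cell receptor alpha chain, fell by 1.63 ± 0.40 in DN1 and by 4.47 ± 0.42 in DN3, where its mean was 1.27 CPM against 26.5 CPM. Gata3, needed by both T cells and ILC2, rose by 1.52 ± 0.20 in DN1 and 2.03 ± 0.20 in DN3. Il2ra, the IL-2 receptor alpha chain, rose by 1.45 ± 0.10 in DN3 and stood at -0.14 ± 0.10 in DN1 (adjusted p = 0.347). Tcf7, which encodes TCF-1, fell by 1.16 ± 0.15 in DN3 on day 7 and had risen by 0.67 ± 0.15 in DN1 on day 5.

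**Figure D4:**
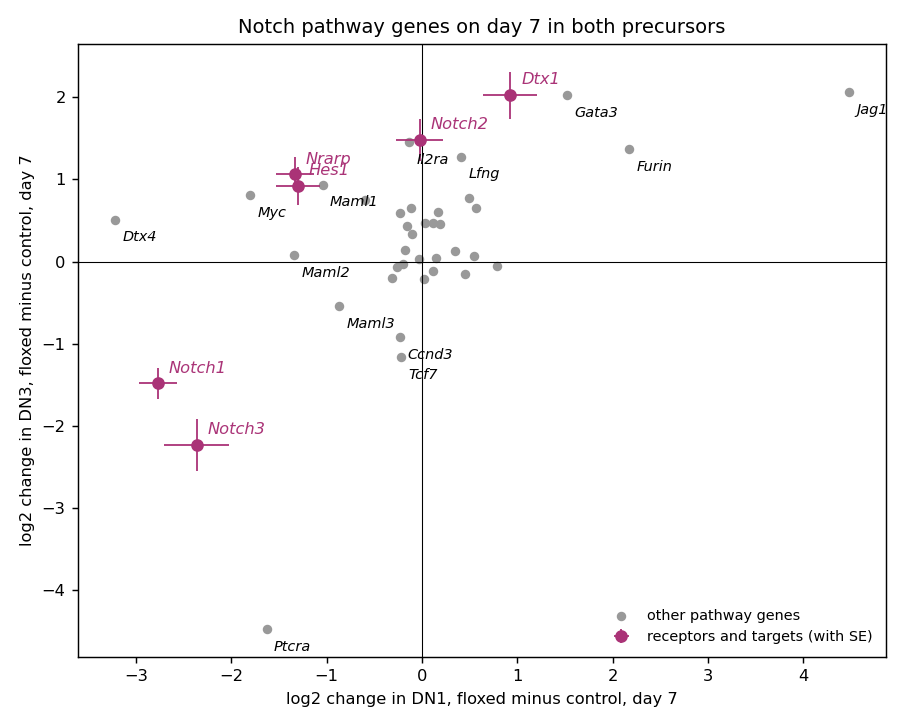
Log2 change, floxed minus control, on day 7 in DN1 (horizontal) and DN3 (vertical). The 6 receptors and targets carry standard errors, and grey points are the 36 other pathway genes with a group mean of at least 5 CPM in either precursor. Notch1 and Notch3 lie low on both axes and Hes1 and Nrarp lie left of 0 and above 0.

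The genes whose levels followed each member most closely over the 24 culture libraries were found by Pearson correlation of log2 CPM among 9533 genes with a mean of at least 5 CPM. These libraries share groups and days, so the values are descriptions. Notch1 was most like Cd3g (r = 0.956), a CD3 chain, then St8sia1 (0.955) and Kcnh2 (0.941). Notch3 was most like Ptgfrn (0.948), Myh10 (0.943) and Trib1 (0.942). Hes1 was most like Ankrd27 (0.913), Nrarp like Etv6 (0.891), Dtx1 like Tmem158 (0.930) and Notch2 like Tmbim6 (0.863). By Spearman rank the closest 3 genes shared 1 with this choice for Notch1, 2 for Hes1, 1 for Dtx1 and 0 for the other genes. Between members, the highest values were 0.761 for Notch2 with Hes1, 0.697 for Notch1 with Notch3 and 0.697 for Hes1 with Nrarp.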

How the data were processed

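Levels were analysed in 31 mouse RNA-seq libraries. The deposited values are raw counts per Ensembl gene made by the authors, in 2 tables, with 26 thymic and 5 lung libraries. The submitters' processing notes name mm10 and DESeq2. No source used here gives the aligner, counting program, annotation or strand setting. Names, lengths and overlaps came from GENCODE M21, which named 48578 of 48881 rows.

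Each table was fitted with edgeR 4.0.16 (R 4.3.3). Genes were kept by filterByExpr (minimum count 10), scaled by TMM and tested with the quasi-likelihood test, with Benjamini-Hochberg adjustment over all tested genes and a threshold of 0.05. One model held the 24 cultures (12 residual degrees of freedom), one the 26 thymus libraries (13) and one the 5 lung libraries (3). Each standard error is the log2 change divided by the root of F. The scripts were tested on simulated data. Alternatives were DESeq2 1.42.0, RLE scaling, plain totals, no filter, compared groups only, a replicate block and leaving out each library.

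The 6 members, the lists and the rule for named genes (up to 4 called genes per list with the largest change and at least 5 CPM) were chosen with earlier results of these data known. Genes named outside it are given as values. A few called genes of the lists are counted but not reported here by name. Sequences are RefSeq's, matched by symbol, and 5 of the 6 had an entry. Replicate pairs differed beyond sampling noise in counts, so none was merged. Lymph node samples named in the design were not analysed here.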

Additional observations from a re-analysis of the deposited data

Results flagged for a closer look

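Differences of the floxed minus control change between days or precursors are listed here because the test of that difference passed. Between day 4 and day 7 in DN1, the change shifted by -2.77 for Notch1, -1.99 for Notch3, -1.10 for Hes1 and -1.28 for Nrarp (log2). In DN3 it shifted by -1.13 for Notch1, 1.88 for Notch2, -2.47 for Notch3, 1.52 for Nrarp and 1.94 for Dtx1. On day 7, the change in DN1 minus that in DN3 was -1.29 for Notch1, -1.51 for Notch2, -2.22 for Hes1 and -2.40 for Nrarp. With 2 or 3 libraries in a group, no single library could be tested as an outlier.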

How the results depend on the processing

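Of 64 member results past the threshold, 0 changed direction under any alternative run and 36 stayed past it under all of them. With no filter on low counts, 1 gene (Dtx1) passed in DN1 on day 4, 5 in DN1 on day 5 and 4 in DN3 on day 5. In that setting 3 passed in the day 5 difference between precursors, 1 in DN3 controls from day 5 to 7, 6 between controls of day 7 and 1 in the lung. Across all comparisons it made 19 member results pass and lost 1. Shares of all genes passing without the filter are not given here, so these counts say little about the 6 genes. Fitted on the compared groups only, 3 passed in DN1 on day 7, 2 in the DN1 shift from day 4 to 7, 1 in the day 5 difference, 4 in DN1 controls, 0 in DN1 floxed cultures and 1 in DN3 controls from day 5 to 7, 6 between controls of day 7 and 1 between floxed cultures of day 7. In that setting 798 of all genes passed in DN1 on day 7, against 3412 in the fit over all cultures, and 133 against 3256 in DN1 floxed cultures from day 5 to 7. For the other comparisons on the compared groups only, shares of all genes are not given here. DN1 controls from day 5 to 7 gave 1 with RLE scaling and 1 with plain totals. DESeq2 gave 1 in the day 5 difference (Hes1) and 2 in the lung, where plain totals gave 1. It also added Notch3 in DN3 on day 5 (0.0358) and, in DN1 controls from day 5 to 7, added Notch1 (0.0458) and lost Nrarp (0.0649). It lost Notch1 between thymic ILC2 and DN3 floxed cultures (0.538). The cause was not tested, beyond the fewer libraries and the different genes these fits hold.

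Leaving out 1 library gave 1 to 2 genes in DN1 on day 5, 0 to 2 in DN3 on day 5, 4 to 5 in DN1 on day 7 and 6 to 6 in DN3 on day 7. It gave 2 to 4 in the DN1 shift and 5 to 5 in the DN3 shift from day 4, 0 to 1 in the day 5 and 3 to 5 in the day 7 difference between precursors. From day 5 to 7 it gave 0 to 0 in DN1 controls, 1 to 4 in DN1 floxed, 0 to 0 in DN3 controls and 2 to 5 in DN3 floxed cultures. Between precursors it gave 4 to 5 in controls of day 4, 2 to 3 in controls of day 7 and 3 to 5 in floxed cultures of day 7, and in the lung 0 to 1. A group left with 1 library was assumed to vary like the others. All genes passing ranged from 1688 to 5803 in DN1 on day 7 and from 2149 to 2878 in DN3 on day 7.

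Deviations of same-letter libraries correlated across days at 0.207 to 0.239 in DN3 floxed cultures, -0.168 to 0.186 in DN1 floxed, -0.123 to -0.00847 in DN3 control and -0.0657 to -0.0265 in DN1 control cultures. Floxed b was below floxed a in 6 of 6 groups for Tcf3 and for Nrarp, and above it in 5 of 6 for Dtx1. No label ties the letters to an animal or culture, and each group has 2, so letters were not taken as pairs. Letters a and b are all floxed and c and d all control, so no paired analysis was possible for floxed minus control on 1 day. The replicate block was run on the changes over days and on the lung. There 40 member results kept their side of the threshold, and the lung gave 1 call (Notch2, -1.53, adjusted p = 0.0185). With the letters crossed, chosen after seeing the data like the plain totals, DN1 floxed cultures gave 3 and DN3 controls 0 from day 5 to 7, with 3407 and 3032 of all genes. Depth limits Nrarp in ILC2 and Notch3 in lung Id1 ILC2, each at 13 counts or fewer per library.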
